A study of Mus musculus and Bos taurus with 2 samples.

Results

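Unspliced transcript models that lie wholly inside introns of known genes were examined in mouse embryos at the late 2-cell stage. A member was a model of the mouse library with 1 exon and the class code i, the code that the assembly comparison gives to a model contained in an intron of a reference transcript. The rule found 1855 members among 42028 mouse models (4.41%, exact Clopper-Pearson 95% interval 4.22% to 4.61%), out of 82847 models in the series. The same rule found 245 of 40819 models in the bovine library that served as background (0.600%, 0.528% to 0.680%). Members were thus selected on exon number and class code, both from the deposited models, so these shares are a description.

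The mouse embryos came from superovulated oocytes of the Slc:ICR stock, fertilized in vitro, grown in KSOM medium and collected 36 h after insemination. The bovine embryos came from Japanese Black oocytes, or from oocytes of F1 cows (Japanese Black × Holstein), matured and fertilized in vitro with sperm of a Japanese Black bull, and were taken at the 8-cell to 16-cell stage, 72 h after insemination. Each library held RNA of about 200 pooled embryos, carried as polyadenylated RNA into nanopore cDNA sequencing with 14 PCR cycles on a flow cell of its own, and the labels put both in batch 1. With 1 library per species there is no replicate error and no test, and species, stage, hours and reference annotation cannot be told apart. No read number is attached to any model, so depth is unknown and the intervals cover counting error only. Lack of a model does not show that a gene was silent. In pooled embryos, fewer cells with a transcript and less of it per cell cannot be told apart. A model on their own strand was found for 19 of 23 genes known for a burst of expression in 2-cell embryos and for 29 of 32 maternal oocyte genes, against 11204 of 20452 protein-coding genes. It was also found for 50 of 50 splicing genes, so having a model does not by itself mark the stage.

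As background, the mouse embryo switches on its own genome in a minor wave and then a major wave, the major one at the 2-cell stage. Widespread transcription with inefficient splicing is known from the minor wave, which comes before the stage sampled here. Introns of the mouse are rich in transposable elements. Among them are B2 elements, short elements derived from a transfer RNA gene and read by RNA polymerase III through an internal A box and B box, and endogenous retroviruses such as MERVL, whose coding part lies between long terminal repeats in direct orientation and which are known for their activity in 2-cell embryos.

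Sequences could be read for 71 members (3.83%, 3.0% to 4.80%), those with at least 50 bases inside an annotated exon of GENCODE release M21 on either strand, since sequence came from annotated transcripts of mm10 and not from a genome. These members are therefore not a sample of all 1855. Among 53 of them under 1000 bp, 43 had their first 60 bases, and 27 of the 43 (62.8%, 46.7% to 77.0%) held the letters GAGATGGCTCAG there. It was the most frequent 12-base run in those starts, and so was chosen on the sequences themselves; the next most frequent was held by 15. The first 120 bases of 6 such members are shown, because they show how alike the starts of members with these letters were. They come from inside the genes Carf, Armt1, Shroom1, Dgcr8, Arhgef2 and Slc13a4. Capitals mark the 12-base motif and, after it, a match to the B box GTTCNANNC.
Carf: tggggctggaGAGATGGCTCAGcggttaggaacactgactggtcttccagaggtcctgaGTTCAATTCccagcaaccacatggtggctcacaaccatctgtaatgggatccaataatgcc
Armt1: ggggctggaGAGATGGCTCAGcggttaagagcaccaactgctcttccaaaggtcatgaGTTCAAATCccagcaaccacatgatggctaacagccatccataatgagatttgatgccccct
Shroom1: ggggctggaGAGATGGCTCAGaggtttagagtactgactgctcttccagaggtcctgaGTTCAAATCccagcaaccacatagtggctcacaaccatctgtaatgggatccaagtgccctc
Dgcr8: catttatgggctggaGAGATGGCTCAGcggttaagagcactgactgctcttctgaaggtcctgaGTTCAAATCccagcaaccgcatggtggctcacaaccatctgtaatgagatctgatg
Arhgef2: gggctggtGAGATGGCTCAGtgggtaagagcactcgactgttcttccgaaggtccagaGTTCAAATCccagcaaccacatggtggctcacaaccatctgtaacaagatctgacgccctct
Slc13a4: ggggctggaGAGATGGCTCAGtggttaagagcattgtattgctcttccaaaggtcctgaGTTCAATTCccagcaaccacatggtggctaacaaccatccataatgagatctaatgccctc
These stretches lie at chr1:60107554-60107673, chr10:4449641-4449760, chr11:53464508-53464627 and chr3:88637553-88637672 on the minus strand, and at chr16:18272174-18272293 and chr6:35286564-35286683 on the plus strand (mm10). The letters follow the start of the B2 element as it is generally known, but no repeat annotation was used and no member was assigned to an element. In 10 of the 27 members the annotated exon was on the same strand as the model, and in the others the letters shown are its reverse complement.

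The motif was found anywhere on the model strand of 28 of the 53 short members with sequence (52.8%, 38.6% to 66.7%). The 27 were selected for having it in the first 60 bases, so its position in them is a description. Its first base was at a median position of 11, counted from 1 at the 5′ end of the model, with a range of 9 to 39 and with 20 of the 27 at or before position 15. On the other strand of the 53 short members it was found in 0 (up to 6.72%). The motif was picked on the model strand of these starts, so the contrast of strands is a description too. Of the 43 members with the first 60 bases, 38 belonged to 1 family of like sequence, described below. The short members are thus not independent, although the intervals take them so. Among 18 members of 1000 bp or more with sequence, the motif was on the model strand of 0 and on the other strand of 1. The B box was found on the model strand of 41 of 53 (77.4%, 63.8% to 87.7%) and on the other strand of 1. Among 32851 RefSeq start windows of GRCm38.p6, each 300 bases around a gene start, 0.405% held the 12-base motif on either strand and 4.55% held the B box on the gene strand. The windows are a background of letters only, since they differ from the members in length and base composition.

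**Figure D1:**
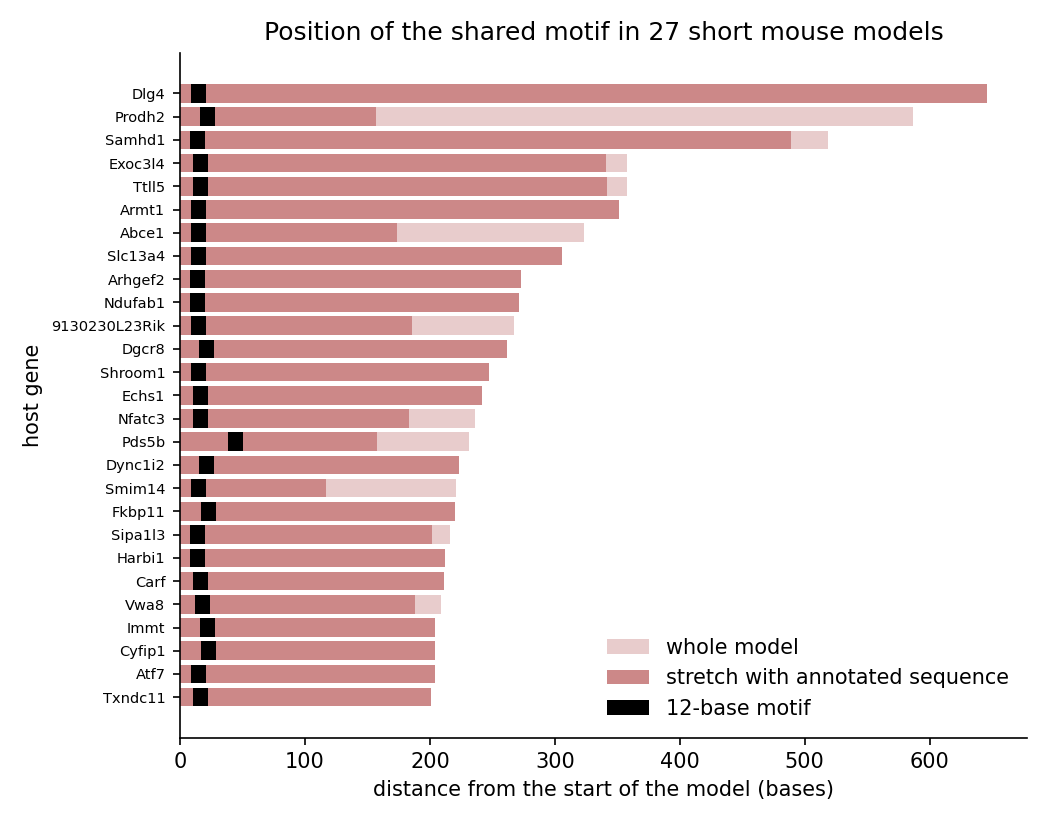
Each bar is 1 of the 27 short mouse members with the 12-base motif in the first 60 bases, drawn by distance from the start of the model in bases. Darker bars mark the stretch with annotated sequence and black marks the motif, which begins between position 9 and position 39 in members of 201 to 646 bp.

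The likeness ran over most of the short models. All 351 pairs of these 27 members aligned on the same strand, with a median identity of 86.8% (73.7% to 95.7%) over a median of 174 bases. A blastn search that linked stretches with 80% identity or more across 60% or more of the shorter sequence put 45 members in 1 family, on 16 chromosomes. Host genes in that family included the microprocessor gene Dgcr8, the synaptic scaffold gene Dlg4 and the mitochondrial gene Immt. The motif was also present in mouse unspliced models between genes, in 14 of 25 under 1000 bp with the first 60 bases (56.0%, 34.9% to 75.6%).

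The ends of members with sequence also carried recurrent letters. AATAAA, the usual polyadenylation signal, lay in the last 50 bases of 23 of 36 members (63.9%, 46.2% to 79.2%). In the last 50 bases of the RefSeq start windows the share was 1.03%. Those windows lie at gene starts and differ in base composition, so they are no matched background for ends. Of the 71 members with sequence, 45 fell in 1 family, so their ends are not independent. The last 20 bases held at least 12 A in 16 of 36 members. In the 20 annotated bases just after the end, at least 12 A were found in 1 of 32 members, that in the gene Proser3 with 13. Priming of cDNA synthesis on A-rich genomic sequence was not tested, for members with or without sequence. The count after the end cannot decide it, since an A-rich stretch may also lie within the last bases of a model.

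Most members were short. The median length was 308 bp in mouse (quartiles 232 and 455 bp) and 763 bp in bovine (493 and 1531 bp). Under 500 bp lay 78.1% of the mouse members (76.1% to 79.9%) and 26.1% of the bovine ones (20.7% to 32.1%). The shortest models had 200 bp in mouse and 203 bp in bovine. Mouse members piled up at this lower edge, with 623 of 1855 under 250 bp, against 9 of 245 in bovine. Nothing shorter is in the data, so the medians and shares describe only models of 200 bp or more. Mouse unspliced models between genes had a median of 347 bp, nearer to the mouse members than to the bovine ones.

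**Figure D2:**
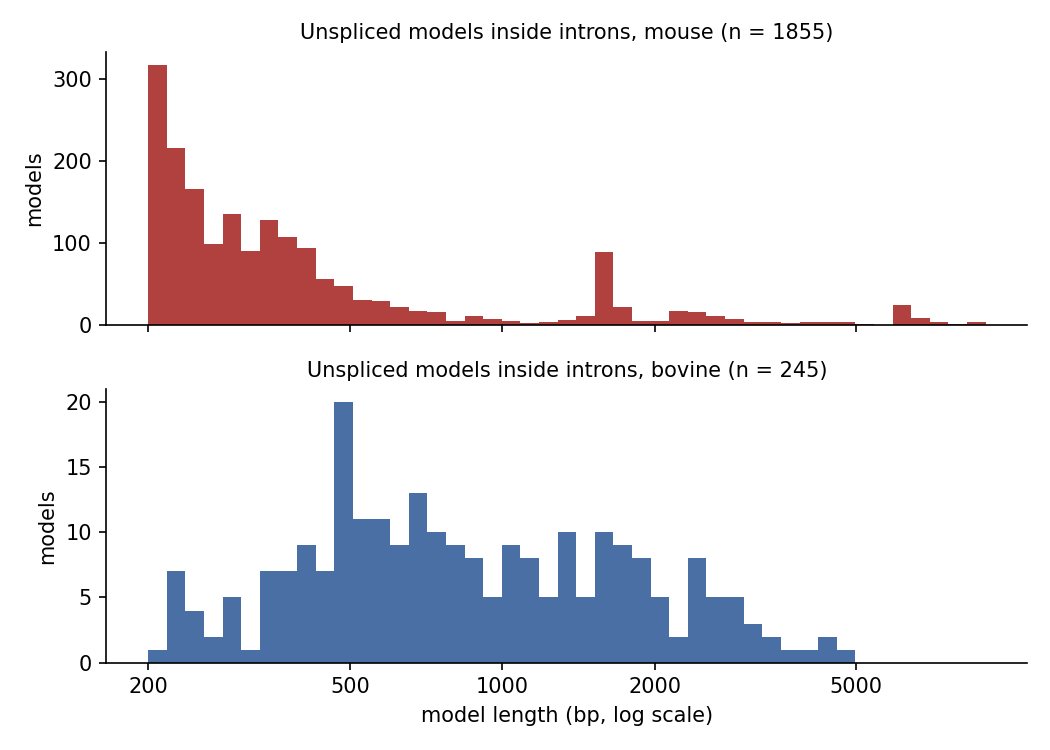
Number of unspliced models inside introns by length in bp on a log axis, mouse above bovine. The mouse panel (n = 1855) is highest next to 200 bp and has separate rises above 1 kb, while the bovine panel (n = 245) is spread around its median of 763 bp.

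Above 1 kb, certain lengths recurred. These length classes were read off the members themselves and are given with no test. Between 1610 and 1659 bp lay 81 mouse members, against 6 in the 50 bp below and 11 in the 50 bp above. They sat in 81 host genes on 19 chromosomes, 42 on the plus strand and 39 on the minus strand, with a median of 1635 bp. Between 2200 and 2399 bp lay 21 members, against 8 below and 9 above in windows of equal width. Between 6000 and 6399 bp lay 23 members on 14 chromosomes, against 1 below and 5 above. The same lengths recurred in mouse models between genes, with 129, 65 and 51 models. In bovine introns the 3 classes held 3, 3 and 0 models, of 245. Near 1635 bp that was 1.22% of the bovine members (0.253% to 3.54%), against 4.37% in mouse (3.48% to 5.40%). Between 2200 and 2399 bp the shares were alike, 1.22% in bovine and 1.13% in mouse. Between 6000 and 6399 bp the bovine 0 allows a share of up to 1.49%, which includes the mouse share of 1.24%.

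**Figure D3:**
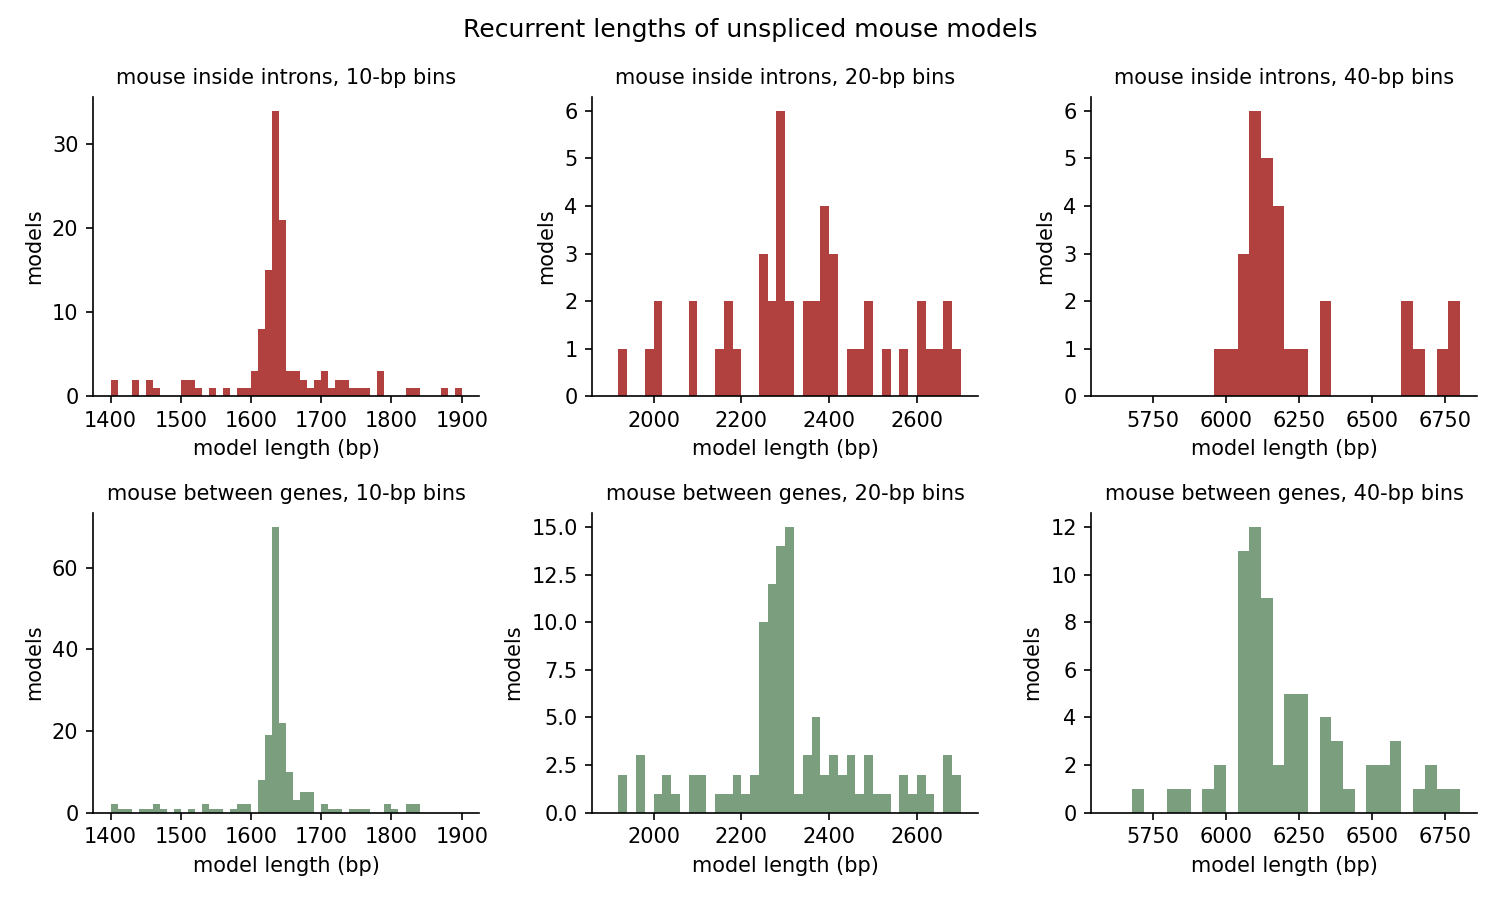
Number of mouse unspliced models by length in bp around the 3 recurrent lengths, inside introns (upper row) and between genes (lower row). The fullest 10-bp bin inside introns, at 1630 to 1639 bp, holds 34 members.

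Sequence was available for only a few members of these classes, and it showed stretches shared between chromosomes. The next 2 stretches come from members of 1635 bp each, inside Gm26861 at chr13:10517687-10517783 and inside Plcb1, a phospholipase C gene, at chr2:135249173-135249268, both on the plus strand. They are shown because members of equal length shared sequence at nearly equal distance from the start, at bases 1505 to 1601 and 1511 to 1606. Capitals mark their longest common run of 33 bases.
Gm26861: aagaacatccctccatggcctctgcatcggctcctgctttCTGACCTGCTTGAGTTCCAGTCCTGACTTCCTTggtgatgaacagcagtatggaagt
Plcb1: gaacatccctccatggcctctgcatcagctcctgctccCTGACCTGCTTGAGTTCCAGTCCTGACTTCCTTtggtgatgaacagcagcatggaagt
The 2 stretches were 94.8% identical over 96 bases. The Gm26861 stretch matched a 1648-bp model between genes at 2 places, bases 28 to 124 and 1519 to 1615, both with 96.9% identity. In that model bases 14 to 151 were repeated without a difference at 1505 to 1642, 6 bases before its end.

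Longer members shared another stretch. It is shown for the members inside Atxn7l1 (6202 bp, a relative of the SAGA subunit gene Atxn7), Vwa8 (8604 bp), Ccser1 (8451 bp) and Arhgap22 (4961 bp), with capitals for the 17 bases common to all 4.
Atxn7l1: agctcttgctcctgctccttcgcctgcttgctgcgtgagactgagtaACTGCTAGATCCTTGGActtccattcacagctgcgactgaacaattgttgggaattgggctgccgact
Vwa8: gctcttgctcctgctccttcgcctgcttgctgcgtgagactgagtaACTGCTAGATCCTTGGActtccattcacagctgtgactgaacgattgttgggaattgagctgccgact
Ccser1: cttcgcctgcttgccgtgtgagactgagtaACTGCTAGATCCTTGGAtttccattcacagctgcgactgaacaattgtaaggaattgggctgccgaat
Arhgap22: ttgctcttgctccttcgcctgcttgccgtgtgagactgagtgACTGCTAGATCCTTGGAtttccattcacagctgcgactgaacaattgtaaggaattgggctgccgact
They lie at chr12:33228740-33228854, chr14:79151276-79151389 and chr14:33220822-33220931 on the minus strand and at chr6:61785111-61785208 on the plus strand. The place in the model differed: bases 5906 to 6020 for Atxn7l1, 8 to 121 for Vwa8, 6011 to 6108 for Ccser1 and 3743 to 3852 for Arhgap22. The Atxn7l1 stretch matched a 6148-bp model between genes at bases 1 to 115 and again at 5891 to 6005, each with 98.3% identity. A further 2590 bases of the Vwa8 member matched the inner part of that model with 99.2% identity.

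Another shared stretch occurred more than once within single members. It is shown for both copies in Eda (2378 bp), the gene of the ligand ectodysplasin, both in Drosha (3544 bp) and the 1 read in Lepr (2187 bp), the leptin receptor gene, with capitals for the 20 bases common to all 5.
Eda copy 1: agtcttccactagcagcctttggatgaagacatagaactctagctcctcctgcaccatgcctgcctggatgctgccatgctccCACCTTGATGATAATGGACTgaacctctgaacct
Eda copy 2: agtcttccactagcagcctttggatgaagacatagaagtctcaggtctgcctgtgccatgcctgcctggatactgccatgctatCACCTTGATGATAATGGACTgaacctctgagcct
Drosha copy 1: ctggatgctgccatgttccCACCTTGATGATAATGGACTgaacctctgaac
Drosha copy 2: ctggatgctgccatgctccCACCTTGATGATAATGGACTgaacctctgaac
Lepr: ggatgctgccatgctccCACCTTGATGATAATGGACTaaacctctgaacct
The Eda copies lie at chrX:100385143-100385259 and chrX:100387255-100387372, and the Lepr stretch at chr4:101788914-101788964, on the plus strand. The Drosha copies lie at chr15:12832439-12832489 and chr15:12830303-12830353 on the minus strand. In Eda the copies were 90.7% identical over 118 bases and the second ended 40 bases before the end of the model. In Drosha they were 98% identical over 51 bases, and 1284 bases of the model followed the second.

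Members lay more often on the strand opposite to their host gene. With host strands taken from exact matches in the same library, 289 of 774 mouse members were on the host strand (37.3%, 33.9% to 40.9%), against 54 of 91 bovine members (59.3%, 48.5% to 69.5%). With strands from GENCODE M21 the mouse share was 38.1% of 1700 members (35.7% to 40.4%). Spliced mouse models inside introns were on the host strand in 26.6% of 286 by exact matches (21.5% to 32.1%). As a check of strand in unspliced models, 373 of 393 with at least 50% of their length in a coding transcript's exon had that exon's strand (94.9%, 92.2% to 96.9%). That check holds for exonic models and was not made inside introns.

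Orientation differed between ranges of length, with no steady trend. By GENCODE strands the share on the host strand was 42.4% of 564 members under 250 bp (38.3% to 46.6%) and 28.1% of 135 members from 500 bp to under 1000 bp (20.8% to 36.5%). From 1000 bp to under 2000 bp it was 45% of 129 (36.2% to 54.0%). In the other ranges it was 37.2% (250 to 349 bp), 34.0% (350 to 499 bp), 36.2% (2000 to 3999 bp) and 33.3% (4000 bp and more). In the length classes it was 30 of 69 near 1635 bp, 10 of 19 between 2200 and 2399 bp and 5 of 18 near 6135 bp. The intervals of the classes overlap one another.

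**Figure D4:**
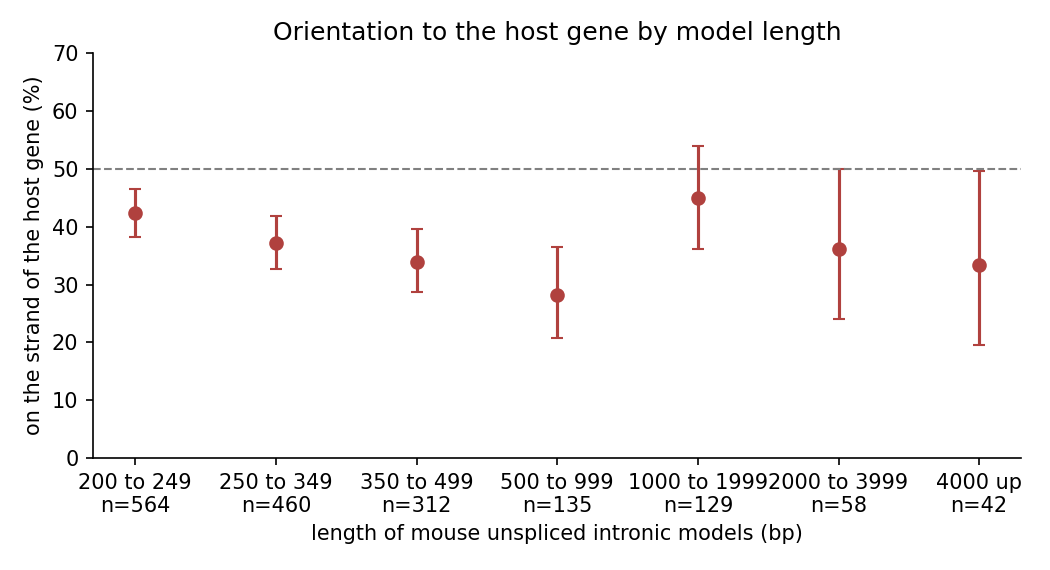
Share of mouse members on the strand of their host gene in percent (points, with exact 95% intervals) by length in bp, host strands from GENCODE M21. The dashed line marks 50%, and the point for 500 bp to under 1000 bp is the lowest at 28.1%.

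The members fell in 1610 host genes, of which 1412 held 1 member, 161 held 2 and 37 held 3 or more. In GENCODE M21, 1461 hosts were found by symbol among 33061 genes with an intron (4.42 percent called as hosts), and 1341 were protein-coding genes among 20452 (6.56 percent). Protein-coding genes with a sense model in the library were hosts in 1008 of 11204 cases (9.00 percent), and those without in 333 of 9248 (3.60 percent). Long genes offer more intron: the median total intron length was 59.2 kb in protein-coding hosts and 14.1 kb in the others. Within each range of intron length the share was higher with a sense model. It was 8.40% with (7.63% to 9.21%) and 3.24% without (2.64% to 3.94%) at 10 to 50 kb, and 25.9% with (22.0% to 30.1%) and 17.7% without (14.4% to 21.5%) above 200 kb.

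**Figure D5:**
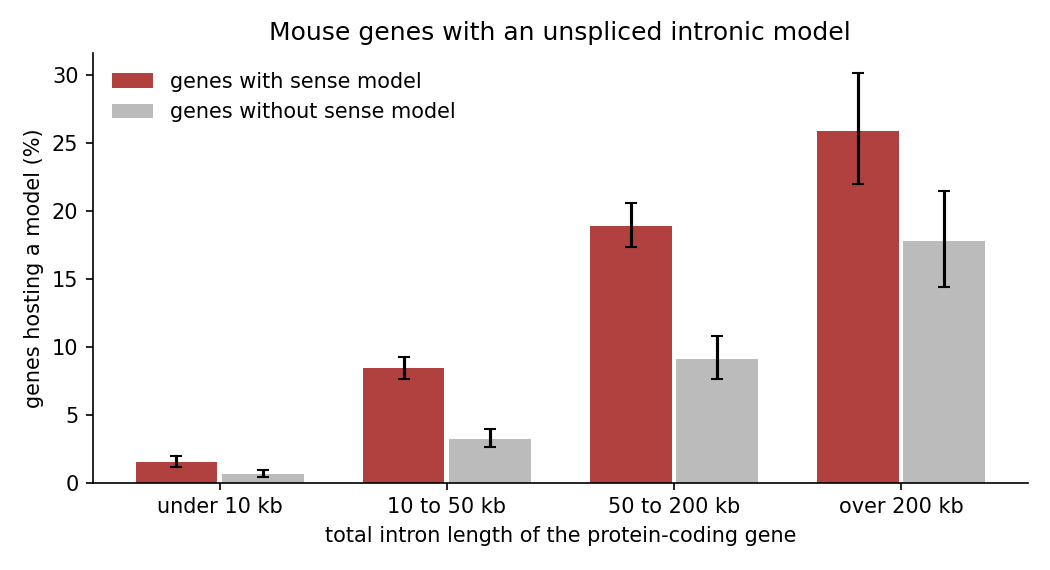
Share of mouse protein-coding genes with at least 1 member in percent (bars from 0, exact 95% intervals), by total intron length, for genes with and without a sense model. The bars with a sense model are higher in all 4 ranges, 18.9% against 9.11% at 50 to 200 kb.

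Per megabase of intron, protein-coding genes with a sense model held 2.23 members and those without held 0.856. The ratio was nearly the same for both orientations. Members on the host strand numbered 0.823 per megabase with a sense model and 0.321 without, a ratio of 2.57. Members on the opposite strand numbered 1.41 with and 0.533 without, a ratio of 2.64.

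The hosts with most members were of mixed function. Tex14, a gene of the bridges between germ cells, held 5 members of 606, 334, 314, 371 and 252 bp, 2 on its own strand and 3 opposite. Atad1, Bicd1, Dennd5b, Naaladl2, Nsd1, Usp32, Utrn and Zc3hav1 held 4 each. In Bicd1, a dynein adaptor gene with no sense model, 3 members of 311, 323 and 309 bp lay within 7.12 kb on the opposite strand. Nsd1, a histone H3 lysine methyltransferase gene with 7 sense models, held 3 on its own strand and 1 opposite. Zc3hav1, the gene of the zinc finger antiviral protein, likewise held 3 on its own strand and 1 opposite. Naaladl2 held 1 of 7715 bp besides 3 under 500 bp. Of genes with 3 members, the first 6 in alphabetical order were Agbl2, Ambra1, Arhgap26, Arl15, Auts2 and Cdc42ep5. All 3 members of Ambra1, a regulator of autophagy, were opposite, and all 3 of Arhgap26 were on the host strand.

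The longest members were 8846 bp in Sh3gl2, an endophilin gene, 8604 bp in Vwa8, 8528 bp in Thoc2, a subunit of the THO mRNA export complex, and 8451 bp in Ccser1. Those in Naaladl2, Kcnk10, a potassium channel gene, Gm20754, Gm32853, Arl15 and Gm6558 had 6957 to 7715 bp. Of the 10, 6 were opposite to the host, 3 on its strand, and 1 had no host strand.

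Lists of genes relevant to the stage were read against the shares above. Among genes of the 2-cell burst 0 of 23 with an intron were hosts, among maternal oocyte genes 0 of 32, and in ribosome biogenesis 0 of 47, against 6.56% of all protein-coding genes. The median intron totals of these lists were 2.51, 7.14 and 11.7 kb, against 15.6 kb over protein-coding genes. Under 10 kb of intron, 1.54% of protein-coding genes with a sense model and 0.632% of those without were hosts. The medians of the first 2 lists lie in that range, but some of their genes may lie above it. These 2 lists were not matched for intron length, so no lack of hosts is read from their counts of 0. In ribosome biogenesis all 47 had a sense model, and the median lies near the border to the next range. At 10 to 50 kb, 8.40% of genes with a sense model and 3.24% of those without were hosts. That list was not matched for intron length, so no lack of hosts is read from its 0. In splicing, with a median of 8.15 kb, 1 of 50 was a host, Srsf4, an SR protein gene, with 1619 bp. In pluripotency and lineage, with a median of 11.5 kb and a sense model for 17 of 25, 1 of 25 was a host. It was the homeobox gene Nanog, with a member of 357 bp on the opposite strand.

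Genes of transposon silencing and DNA methylation were hosts in 6 of 39 cases, with a median intron total of 39.1 kb, and 35 of the 39 had a sense model. Over all protein-coding genes the share was 6.56%, and at 10 to 50 kb of intron it was 8.40% with a sense model and 3.24% without. At 50 to 200 kb it was 18.9% with and 9.11% without. The hosts Drosha, Smchd1 and Atrx had 104.5, 110.9 and 110.0 kb of intron, and Mov10, Cbx1 and Dgcr8 had 18.1, 15.2 and 27.6 kb. The list was not matched for intron length, so no excess of hosts is read from it. Mov10, an RNA helicase gene, held 1638 bp, and Smchd1, of X inactivation, held 1642 bp, both inside the recurrent class near 1635 bp. Cbx1, of heterochromatin protein HP1 beta, held 264 bp. The microprocessor genes Drosha and Dgcr8 held 3544 and 262 bp. Atrx, a chromatin remodeller gene, held 2 members of 383 bp each. All 7 members of the list lay opposite to their host, against 61.9% of the 1700 mouse members with a GENCODE host strand. The 7 come from only 6 genes, and the list was chosen with earlier results known, so no trait of these genes is read from them.

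Large synaptic and adhesion genes were hosts in 14 of 55 cases with 19 members, at a median intron total of 955.7 kb. The share of hosts over 200 kb of intron was 25.9% with and 17.7% without a sense model, and 24 of the 55 had one. Of the 19 members, 9 were on the host strand and 10 opposite. Auts2 held 3 members of 625, 1262 and 282 bp, and Ctnna2, a neuronal catenin gene, held 1629 and 202 bp. Dlgap2, of the postsynaptic density, held 208 and 1620 bp, and Dmd, the dystrophin gene, held 303 and 356 bp. Pcdh15 and Ctnna3 held 1632 and 1637 bp.

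Within introns the members were spread over the whole length. Of the 1698 members in M21 genes with an intron, 1578 lay in an intron free of any exon of the host, which the rule largely sets. Of the others, 54 touched an annotated exon of the host, and 66 lay outside the span that M21 gives the host. The median intron had 10.4 kb, and the median relative position was 0.512, where 0 is the start of the intron. Across 5 equal parts of the intron, 242, 356, 357, 367 and 256 members had their centre there. Since a member must fit wholly inside the intron, its centre cannot lie at an edge. The rule thus lowers the outer counts, most in short introns. For the 804 members in introns of at least 10 kb the counts were 151, 170, 151, 182 and 150. The median distance to the nearest exon of the host was 2.05 kb, and 30.9% lay within 1 kb of one. First introns held 23.2% of the members in genes with several introns (21.1% to 25.4%), while the first intron made up on average 19.9% of the intron length of those hosts.

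Few members lay in annotated exons of any gene. The rule largely sets this, since it takes models contained in introns of the reference, so the shares are a description. On the same strand 39 members shared at least 1 base with a GENCODE exon (2.10%, 1.5% to 2.86%), and 42 did on the opposite strand. In the same library, 78 members shared bases with an exon of another model on the same strand (4.20%). Closer than 10 kb on 1 strand lay 38 groups, 36 of them pairs, with 78 members in all, and the largest held 3 members each in Bicd1 and in Zfp141, a zinc finger gene, over 14.5 kb. Over all chromosomes there were 1.67 members per megabase of intron, with 2.53 on chromosome 11, 2.34 on chromosome 19 and 1.27 on chromosome 3, and 0 on the Y chromosome.

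Mouse and bovine hosts overlapped in 34 symbols, which is 2.11% of the mouse hosts and 14.7% of the bovine hosts. Beside this, mouse hosts made up 9.00% of protein-coding genes with a sense model and 25.9% of those that also had over 200 kb of intron. The overlap was not matched for intron length, so nothing particular to the shared genes is read from it. They included AUTS2 with 3 mouse and 2 bovine members, the histone demethylase genes KDM2A and KDM5A, the cell adhesion genes PCDH15 and NRXN3, the catenin gene CTNND1 and EDA. EDA held 2378 bp in mouse and 566 bp in bovine, and TCF20 held 311 bp in mouse and 4463 bp in bovine. In bovine, 13 genes held 2 members each, the highest number there, and among them were RBFOX1, a splicing regulator gene, RUNX2 and SORCS3. Sense models were found for 66.6% of the mouse hosts (64.2% to 68.9%) and 79.3% of the bovine hosts (73.5% to 84.3%). Among mouse protein-coding genes with an intron, 75.2% of the hosts had one, against 53.4% of the others. No share over other genes was made for bovine, so the difference between the species is not read as a trait of the hosts.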

How the data were processed

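Per the file headers, each library's deposited file lists transcript models assembled with StringTie. Comparison with a reference had given each model a class code and a closest transcript. No count, score or other abundance is in the files. The columns used hold start and end positions. Per the submitters' processing notes, the builds were mm10 and bosTau9. For alignment and read filtering, tools were not given in the sources used here.

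Models were grouped by the labels into 1 mouse and 1 bovine library. Members and gene lists were chosen with earlier results of these data known. Host genes were the names in the files. Introns, strands and transcript sequences came from GENCODE M21 (GRCm38), and start windows from RefSeq GRCm38.p6. Of 21221 stretches of 30 bases found in both sources, 21221 were identical. A sense model had class code =, c, k, m, n, j or o. The 95% intervals were Clopper-Pearson intervals from scipy 1.17.1 and take models as independent. Overlaps used bedtools 2.31.1 and families blastn 2.17.0, with single linkage of same-strand matches of 50 bases or more at an e-value of 1e-05. Motifs were searched on both strands as spelled. Length classes were the fullest 10-bp bin above 1 kb with 2 bins on each side, the fullest 200-bp bin from 2 to 3 kb and the fullest 400-bp bin from 5 to 7 kb. Named genes were the 15 mouse and 10 bovine hosts with most members, list hosts, shared hosts, the 10 longest members, and members of the largest clusters and sequence families; examples of these are given. The orientation and cluster steps were tested on simulated data.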

Additional observations from a re-analysis of the deposited data

How the results depend on the processing

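No paired analysis was possible because each group has 1 library. Leaving out a library was not possible for the same reason. The share on the host strand was 32.4% with members of at least 500 bp, and it stayed between 37.2% and 38.1% with GENCODE strands, with positions under genes of 1 strand and without the class near 1635 bp, the last 2 chosen after seeing the data. Merging overlapping members changed nothing, since no members shared a locus. Host genes numbered 392 with members of at least 500 bp, 608 with host-strand members and 961 with opposite-strand members, as fewer members were counted. Hosts with an exact match made up 41.6%. Overlap with annotated exons was 1.02% when at least 50% of the member was required and 4.26% on either strand. Groups numbered 25 at 5 kb and 66 at 20 kb. With at least 15 A required after the end, the share was 0%. The largest sequence family held 30 members at 90% identity over 80%. Sequence covered 71 members, so shares in it do not extend to the rest, and the depth behind any model is unknown.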

Other observations

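Transcript models inside introns with exactly 2 exons numbered 658 in mouse and 640 in bovine, beside 1855 unspliced ones in mouse and 245 in bovine. Of the 27 members with the 12-base motif near the start, 8 were on the host strand (29.6%, 13.8% to 50.2%). Other short members with sequence were on the host strand in 14 of 26 cases (53.8%, 33.4% to 73.4%), and the intervals overlap.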
